A study of Mus musculus with 6 samples.

Results

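The genes described here are the 10 that carry carbon into new fatty acid chains and their regulators: Slc25a1, Acly, Acss2, Me1, Acaca, Acacb, Mid1ip1, Thrsp, Fasn and Aacs. They were chosen by gene symbol as the genes of citrate export, acetyl-CoA and malonyl-CoA supply and the fatty acid synthase, and all 10 had a row among the 19865 gene symbols of the count tables. Earlier results of these data were known when the set was chosen. Counts came from 3 trSrebf1 and 3 control libraries of mouse lung fibroblasts. Cells of the trSrebf1 group were fibroblasts from lungs of Col1a2-GFP transgenic C57BL/6 mice that received by retrovirus an active form of Srebf1c, named trSrebf1, under the control of doxycycline. Cells of the control group were the same kind of fibroblasts with the control vector, and hLNGFR, a human surface receptor, was the vector marker by which transduced cells were sorted. In both groups the recipients were B6 mice with lungs injured by bleomycin at 2 mg/kg. The cells went into the trachea on day 5 after bleomycin, doxycycline is recorded for day 7, and donor cells were recovered on day 10, which is day 5 after transfer. The sort kept live cells with GFP and hLNGFR that lacked Ter119, CD146, EpCAM, CD45 and CD31, so only cells in which the Col1a2 promoter drove GFP were collected. Each library was made from 10000 sorted cells by 3'SAGE-seq, which counts reads from the 3' ends of polyadenylated transcripts.

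Cytosolic acetyl-CoA is the building block of fatty acids, and it cannot cross the mitochondrial inner membrane directly. Slc25a1 carries citrate out of the mitochondrion, Acly cleaves that citrate into acetyl-CoA and oxaloacetate, and Acss2 makes acetyl-CoA from acetate instead. Me1, the cytosolic malic enzyme, turns malate into pyruvate and yields NADPH, the reductant of chain synthesis. Acaca and Acacb, the acetyl-CoA carboxylases, make malonyl-CoA, Mid1ip1 and its relative Thrsp (Spot 14) act on the carboxylase, and Fasn builds palmitate from malonyl-CoA. Aacs, acetoacetyl-CoA synthetase, activates the ketone body acetoacetate in the cytosol. Srebf1 encodes SREBP-1, a transcription factor known for switching on lipid synthesis genes in liver and fat.

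Libraries held 4151691 to 4688196 counts in the trSrebf1 group and 3675146 to 4134354 in the control group. Levels are given in CPM, the usual depth-scaled unit for counts, with library sizes adjusted by the trimmed mean of M-values (TMM). The labels do not say whether replicates came from separate mice or cultures, so p-values measure the spread of these libraries only, and that spread may be technical. The count of Srebf1 tags, whose origin in the mouse's own gene or in the vector is not known, was 133, 123 and 108 in trSrebf1 libraries and 32, 20 and 33 in control libraries. Fibroblast markers were abundant in every library, with 8 markers summing to 20364 to 23291 CPM in trSrebf1 and 28780 to 33767 CPM in control libraries, with no overlap. The 8 did not move alike. The groups overlapped for Col1a1, and Pdgfrb was higher in trSrebf1, at 143 ± 10.5 CPM against 78.6 ± 6.28 CPM in control (SD, n = 3 each). The other fibroblast markers were lower in trSrebf1. Of 6 adipocyte markers 2 matched a row, and they summed to between 0 and 0.254 CPM in trSrebf1 and between 0.236 and 0.787 CPM in control libraries. Type 2 alveolar cells make much fatty acid for surfactant. Their 5 matched markers of 6 summed to 10.0 to 23.9 CPM in trSrebf1 and 11.3 to 19.1 CPM in control libraries, so the groups overlapped. The 5 matched endothelial markers of 6 summed to 0.761 to 2.06 CPM in trSrebf1 and 1.18 to 1.81 CPM in control libraries, which overlapped. Of 6 macrophage markers the 3 matched summed to 0.645 to 1.60 CPM in trSrebf1 and 0 to 2.62 CPM in control libraries. The 4 other epithelial markers summed to 6.60 to 13.6 CPM in trSrebf1 and 0.708 to 1.55 CPM in control libraries, with Foxj1 the highest. These markers did not move alike. Foxj1 had 34, 23 and 24 counts in trSrebf1 and 3, 3 and 1 counts in control libraries. Cdh1 had 14, 2 and 11 counts against 0, 1 and 0, and the groups overlapped for Epcam and Scgb1a1. The part of these marker differences in the results below was not tested.

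Start regions of 4 of the genes are printed because these are, among the 9 tested genes, the 3 with the largest changes and, last, the one with the smallest change that passed the test. Each runs from 250 bases before to 50 bases after the RefSeq transcript start on GRCm38.p6, 5′ to 3′ on the strand of the gene. Capitals mark the motifs that were searched on both strands, which were CCAAT (NF-Y box), GGGCGG (GC box), CACGTG (E-box) and TCACNCCAC (core of a sterol regulatory element). Acss2 lies at chr2:155517793-155518092 on the plus strand, Fasn at chr11:120824498-120824797 on the minus strand, Acly at chr11:100527951-100528250 on the minus strand and Aacs at chr5:125475623-125475922 on the plus strand.
Acss2: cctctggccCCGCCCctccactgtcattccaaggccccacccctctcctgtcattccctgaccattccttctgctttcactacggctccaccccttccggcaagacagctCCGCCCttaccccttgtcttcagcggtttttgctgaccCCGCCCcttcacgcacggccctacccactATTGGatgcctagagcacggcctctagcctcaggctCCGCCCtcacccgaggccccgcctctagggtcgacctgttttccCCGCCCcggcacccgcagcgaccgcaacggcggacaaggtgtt
Fasn: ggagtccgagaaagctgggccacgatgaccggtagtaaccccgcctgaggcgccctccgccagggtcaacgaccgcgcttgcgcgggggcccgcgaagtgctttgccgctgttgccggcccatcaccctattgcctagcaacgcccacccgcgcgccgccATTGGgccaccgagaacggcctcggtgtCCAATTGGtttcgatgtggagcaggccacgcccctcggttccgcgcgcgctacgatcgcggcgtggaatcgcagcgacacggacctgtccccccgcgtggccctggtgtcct
Acly: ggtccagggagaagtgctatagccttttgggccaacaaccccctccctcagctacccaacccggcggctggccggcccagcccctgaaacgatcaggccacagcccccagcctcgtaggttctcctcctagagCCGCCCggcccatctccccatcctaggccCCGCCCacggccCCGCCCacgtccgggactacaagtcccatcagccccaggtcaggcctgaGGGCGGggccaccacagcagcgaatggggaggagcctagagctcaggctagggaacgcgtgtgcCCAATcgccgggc
Aacs: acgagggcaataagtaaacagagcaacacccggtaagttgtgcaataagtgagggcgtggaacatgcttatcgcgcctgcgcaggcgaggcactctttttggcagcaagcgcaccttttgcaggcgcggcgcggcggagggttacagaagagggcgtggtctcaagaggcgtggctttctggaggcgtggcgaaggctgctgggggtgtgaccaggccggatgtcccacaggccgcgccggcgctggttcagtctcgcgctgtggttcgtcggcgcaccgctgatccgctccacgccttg

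RefSeq held 11 such windows for the 10 genes, with 2 for Me1, and 32851 windows in all. The NF-Y box letters stood in 7 of the 11 windows, against 37.4% of all windows. GC box letters stood in 5 of the 11, against 35.7% of all windows. The E-box stood in 1, that of Slc25a1, against 7.15% of all, and the core of the sterol regulatory element in 0 of the 11, against 1.24% of all. In the Fasn window CCAAT on the gene strand, from -62 to -58, overlapped a match on the opposite strand from -59 to -55, and a separate match on the opposite strand spanned -90 to -86. Acss2 had 5 GC boxes and 1 NF-Y box, Acly had 4 and 1, and Aacs had none of the 4 motifs. The windows of Acaca, Acacb and Mid1ip1 and the second window of Me1 lie inside the GENCODE gene, downstream of its first base. These matches describe letters in a window and say nothing of binding.

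**Figure D1:**
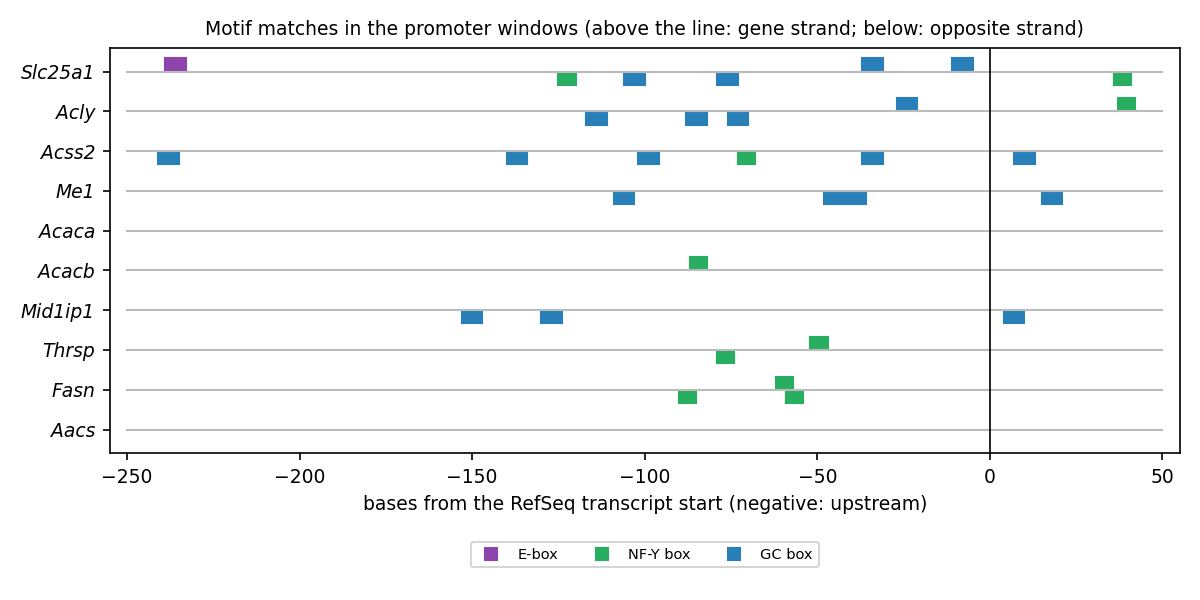
Motif matches in the first RefSeq window of each of the 10 genes, by bases from the transcript start (horizontal axis), with matches on the gene strand above each line and on the opposite strand below. NF-Y boxes (green) and GC boxes (blue) recur, the E-box (purple) stands in Slc25a1 alone, and the windows of Acaca and Aacs hold no match.

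Of the 10 genes 9 passed the filter on low counts, and 8 of these 9 passed the test as higher in trSrebf1 fibroblasts and 0 as lower (edgeR quasi-likelihood, adjusted p under 0.05, Benjamini-Hochberg over 10194 tested genes). The test called 17.2% of all tested genes higher, 13% lower and 30.2% in either direction. At an unadjusted p under 0.05 the 9 were all higher and 0 lower, and DESeq2 and limma-voom also gave 8 higher and 0 lower. Acss2 passed the filter through its trSrebf1 libraries alone, and without it 7 of 8 were higher. The median log2 fold change was 1.82 over the 9 genes, 1.75 without Acss2 and -0.01 over all tested genes. Thrsp did not pass the filter and is described by its counts. In bulk RNA a change in the share of cells that express a gene and a change in RNA per cell cannot be told apart.

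**Figure D2:**
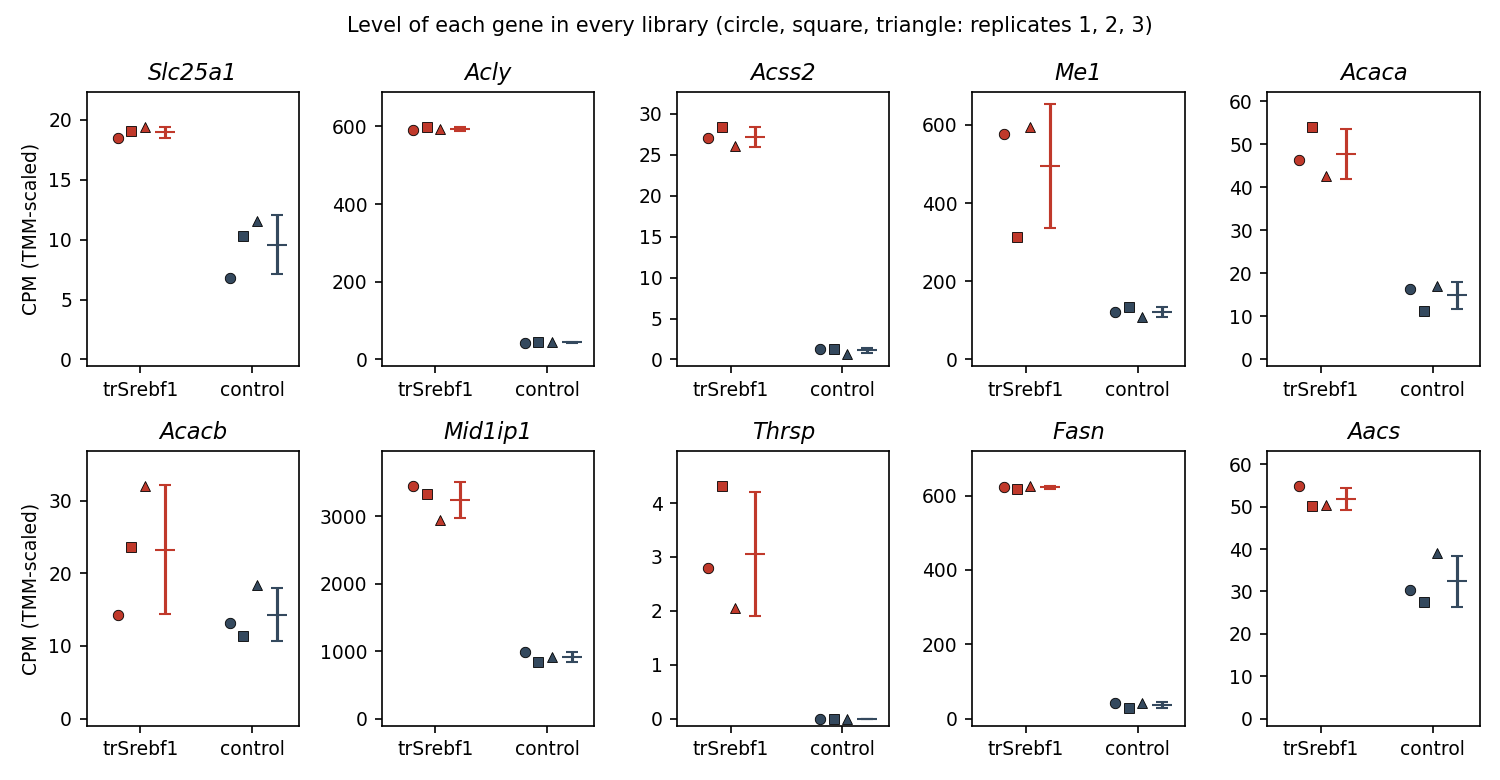
CPM of each of the 10 genes in every library, with trSrebf1 left and control right in each panel, points for libraries (circle, square and triangle for replicates 1, 2 and 3) and a bar for the mean with its SD (n = 3 each); vertical scales differ between panels. The groups overlap for Acacb, and trSrebf1 replicate 2 lies below the other trSrebf1 libraries for Me1.

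The genes of citrate export and cleavage both had higher RNA levels, by unequal amounts. Slc25a1 (chromosome 16, 17925223 to 17928219, minus strand), the citrate carrier, stood at 18.5, 19.0 and 19.4 CPM in trSrebf1 libraries and at 6.82, 10.3 and 11.6 CPM in control libraries. The groups did not overlap, and the control libraries were the more spread. Its log2 fold change was 0.98 (SE 0.23, adjusted p = 0.00350), with a 95% interval of 0.49 to 1.47, and 10.2% of all tested genes had a larger one. Acly (chromosome 11, 100476353 to 100528000, minus strand), the citrate lyase, stood at 590, 599 and 593 CPM in trSrebf1 libraries and at 42.0, 43.9 and 45.1 CPM in control libraries. Replicates lay close together in both groups, with a coefficient of variation of 0.785% in trSrebf1 and 3.59% in control. The counts were 2742, 2360 and 2595 in trSrebf1 and 160, 170 and 191 in control libraries. Counting error alone would be expected to spread such counts more widely, so this closeness is not read as a trait of the gene. The log2 fold change of Acly was 3.77 (SE 0.11, adjusted p = 1.52e-13, interval 3.53 to 4.01), and 1.11% of tested genes had a larger one.

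The gene of the acetate route had the largest fold change among the 9 tested genes. Acss2 (chromosome 2, 155517948 to 155585724, plus strand), which joins acetate to coenzyme A, had 126, 112 and 114 counts in trSrebf1 libraries and 5, 5 and 3 counts in control libraries. These were 27.1, 28.4 and 26.0 CPM against 1.31, 1.29 and 0.708 CPM, so the gene was near the limit of detection in the control group. The log2 fold change was 4.60 (SE 0.30, adjusted p = 2.54e-09), with an interval of 3.97 to 5.24, or 15.6-fold to 37.7-fold. An antisense gene, Acss2os, shares 113 of the last 300 bases of an Acss2 transcript and had 2, 6 and 4 counts in trSrebf1 and 0 in control libraries. Exon bases shared with Acss2os lie 28813 bases or more from the 3' end of the Acss2 gene. Gss, also on the opposite strand, shares 395 exon bases that lie 8753 bases or more from that end. Use of strand in the counting was not stated in the labels.

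Acss2 and Acly supply the same product from different carbon, so their counts were set against each other within each library, where scaling cancels. Acss2 made up 4.39%, 4.53% and 4.21% of the Acss2 and Acly counts in trSrebf1 libraries and 3.03%, 2.86% and 1.55% in control libraries. The share was 4.38% ± 0.162 in trSrebf1 and 2.48% ± 0.811 in control (SD, n = 3 each), a difference of 1.90 percentage points. The groups did not overlap in this share, but control shares rest on 5, 5 and 3 Acss2 counts, where counting error is large. The edgeR intervals of the log2 fold changes of Acss2 (3.97 to 5.24) and Acly (3.53 to 4.01) overlapped. The exact two-sided permutation p was 0.1, the smallest possible with 3 libraries a group, and it was also 0.1 after adjustment over the 4 pairs compared in this way. Tags per transcript can differ between genes, so a share is read only between groups and not as the ratio of transcripts.

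Me1 (chromosome 9, 86581371 to 86695953, minus strand), the malic enzyme that yields NADPH, stood at 577, 313 and 595 CPM in trSrebf1 libraries and at 121, 135 and 109 CPM in control libraries. The groups did not overlap, but trSrebf1 replicate 2 lay well below the other trSrebf1 libraries. The log2 fold change was 2.03 (SE 0.25, adjusted p = 4.96e-04) and 2.27 without that library. In replicate 2 Me1 stood at 0.534 of its mean in the other trSrebf1 libraries, where the median ratio over the 1405 tested genes with a trSrebf1 mean of 100 CPM or more was 1.02. Only 10 of these 1405 genes, Me1 included, had a ratio as low or lower. Another, named after its values were known, was Got1, the cytosolic aspartate aminotransferase, at 0.407 (343, 129 and 291 CPM in trSrebf1 and 184, 171 and 164 CPM in control libraries). Fasn, Acly and Mid1ip1, the other genes of the set with so high a level, had ratios of 0.991, 1.01 and 1.04.

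The carboxylases that make malonyl-CoA differed in what could be detected. Acaca (chromosome 11, 84129672 to 84401651, plus strand), the cytosolic form, had 215, 213 and 187 counts in trSrebf1 libraries and 62, 44 and 72 counts in control libraries. The level was 46.2, 54.1 and 42.7 CPM in trSrebf1 against 16.3, 11.4 and 17.0 CPM in control, with no overlap. Its log2 fold change was 1.68 (SE 0.19, adjusted p = 2.13e-06, interval 1.28 to 2.07). The last 300 bases of an Acaca transcript are also those of the processed pseudogene Gm5182, which was listed with 11, 11 and 4 counts in trSrebf1 and 0, 1 and 3 counts in control libraries, so how the tags divide between gene and pseudogene is uncertain.

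Acacb (chromosome 5, 114146535 to 114250761, plus strand) encodes the carboxylase of the mitochondrial surface, whose malonyl-CoA is known for restraining fatty acid oxidation. It stood at 14.2, 23.6 and 32.0 CPM in trSrebf1 libraries and at 13.1, 11.4 and 18.4 CPM in control libraries. The groups overlapped, since trSrebf1 replicate 1 lay below control replicate 3. The log2 fold change of 0.69 (SE 0.28, interval 0.10 to 1.28) had an adjusted p of 0.0722 in edgeR and did not pass the threshold. It passed without trSrebf1 replicate 1 (0.96, adjusted p = 0.00928), without control replicate 3 (0.91, adjusted p = 0.0379) and with no filter on low counts (adjusted p = 0.00999), while without trSrebf1 replicate 3 the log2 fold change was 0.39 (adjusted p = 0.350). Across all alternatives its adjusted p spanned 0.00928 to 0.350. Acacb took 23.5%, 30.4% and 42.8% of the counts of both carboxylases in trSrebf1 libraries and 44.6%, 50.0% and 52.0% in control libraries. The share was 16.6 percentage points lower in trSrebf1, at 32.2% ± 9.79 against 48.9% ± 3.80 in control (SD, n = 3 each), with no overlap and an exact permutation p of 0.1, again the smallest possible.

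Mid1ip1, which promotes the assembly of carboxylase filaments, gave more counts than the other 9 genes together in every library. Mid1ip1 (chromosome X, 10715013 to 10719690, plus strand) had 16031, 13140 and 12881 counts in trSrebf1 libraries and 3784, 3256 and 3894 counts in control libraries. The level was 3448, 3334 and 2942 CPM in trSrebf1 and 992, 840 and 919 CPM in control, and the groups were far apart. Its log2 fold change was 1.82 (SE 0.11, adjusted p = 6.38e-10, interval 1.60 to 2.04). An antisense gene, Gm14493, overlaps its exons over 543 bases and had no row of its own.

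Thrsp (chromosome 7, 97412938 to 97417730, minus strand), the relative of Mid1ip1 known as a thyroid hormone response gene of liver and fat, had 13, 17 and 9 counts in trSrebf1 libraries and 0 counts in every control library. The level over the group was 3.01 CPM in trSrebf1, and 3 counts over the control group, the limit that a count of 0 allows, correspond to 0.251 CPM. The observed trSrebf1 level was 12.0-fold above that limit, a value that allows for counting error in the control group only and not in the trSrebf1 counts. Thrsp made up 0.0810%, 0.129% and 0.0698% of the counts of the pair with Mid1ip1 in trSrebf1 and 0% in control libraries. With 0 control counts, any Thrsp count in each trSrebf1 library gives the smallest exact permutation p, here 0.1. This comparison therefore adds nothing to the counts.

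Fasn (chromosome 11, 120805846 to 120824547, minus strand), the synthase that builds palmitate, had 2892, 2436 and 2739 counts in trSrebf1 libraries and 156, 112 and 178 counts in control libraries. In CPM the trSrebf1 libraries were nearly level at 622, 618 and 626, and the control libraries stood at 40.9, 28.9 and 42.0. Counting error alone would be expected to spread the trSrebf1 levels more widely. The log2 fold change was 4.06 (SE 0.14, adjusted p = 7.15e-13, interval 3.76 to 4.36), and 1.00% of tested genes had a larger one. Fasn took 93.1%, 92.0% and 93.6% of the joint counts of Fasn and Acaca in trSrebf1 libraries, against 71.6%, 71.8% and 71.2% in control libraries. This share of the synthase was 21.4 percentage points higher in trSrebf1, at 92.9% ± 0.842 against 71.5% ± 0.300 in control (SD, n = 3 each), with no overlap (exact permutation p = 0.1). Control shares rest on 62, 44 and 72 Acaca counts beside the Fasn counts above. Their SD of 0.300 is below the counting error of a share from so few counts. How Acaca tags divide with Gm5182 is uncertain here too.

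Aacs (chromosome 5, 125475814 to 125517410, plus strand), which activates acetoacetate, had the smallest change that passed the test. It stood at 54.8, 50.2 and 50.5 CPM in trSrebf1 libraries and at 30.4, 27.6 and 39.2 CPM in control libraries. The groups did not overlap, and the log2 fold change was 0.68 (SE 0.16, adjusted p = 0.00383, interval 0.33 to 1.02). Of all tested genes 16.0% had a larger log2 fold change. Its estimate was close to that of Acacb, whose libraries were more spread.

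**Figure D3:**
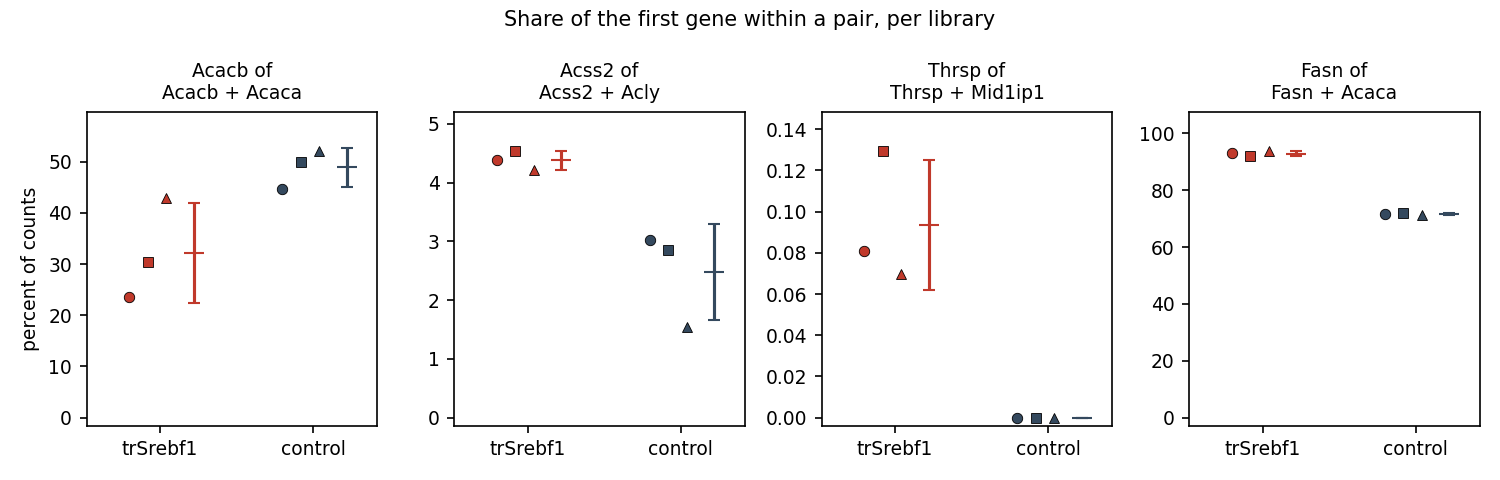
Percent of counts taken by the first gene of each of 4 pairs in every library, with trSrebf1 left and control right in each panel, points for libraries and a bar for the mean with its SD (n = 3 each). The groups are separate in each panel: Acacb takes a smaller share in trSrebf1 libraries (23.5% to 42.8%) than in control libraries (44.6% to 52.0%), and Acss2 and Fasn take larger shares in trSrebf1. Thrsp had 0 counts in control libraries, so its panel is separate by its counts alone. The Acss2 shares of control libraries rest on 5, 5 and 3 Acss2 counts.

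Among the fold changes, those of 3 genes stood apart by their intervals. Acss2, Fasn and Acly had intervals that started at 3.53 or higher on the log2 scale, while those of the other 6 tested genes ended at 2.60 or lower. Me1, Mid1ip1 and Acaca had log2 fold changes of 1.68 to 2.03, and Slc25a1, Acacb and Aacs of 0.68 to 0.98. The middle 90% of all tested genes lay between -1.15 and 1.63, so the lowest 3 were within it and the other 6 above it. Along the route from citrate the log2 fold changes were 0.98 for the carrier, 3.77 for the lyase, 1.68 for the cytosolic carboxylase and 4.06 for the synthase. The intervals of carrier and carboxylase overlapped, as did those of lyase and synthase.

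**Figure D4:**
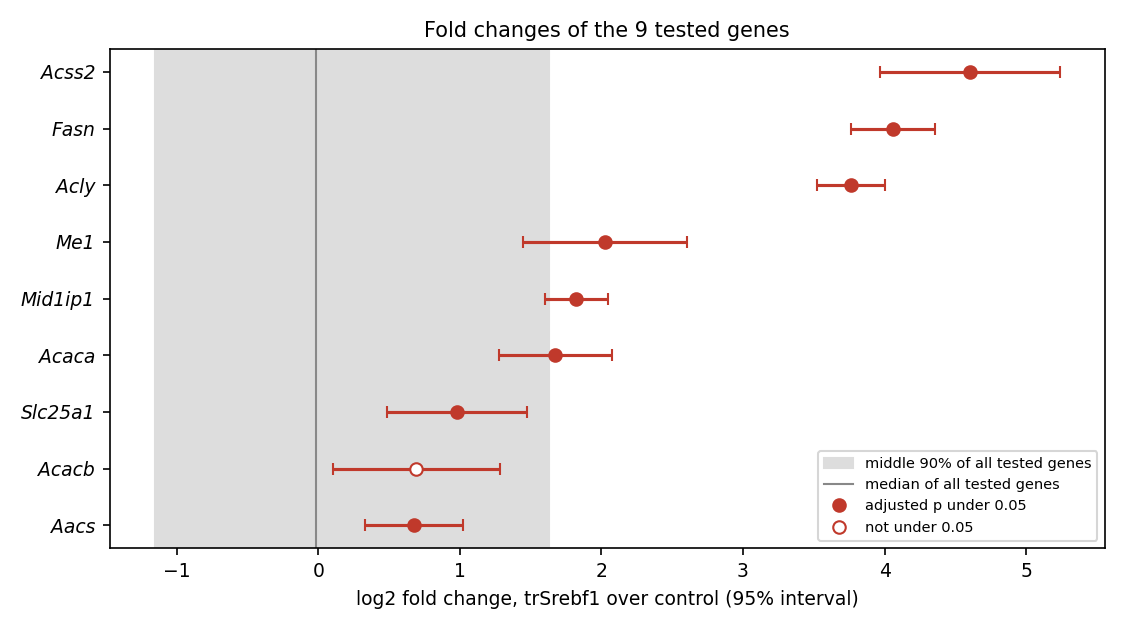
Log2 fold change of the 9 tested genes, trSrebf1 over control, with its 95% interval (horizontal axis), filled where the adjusted p was under 0.05, over the median and the middle 90% of all tested genes (grey). Acss2, Fasn and Acly stand apart from the others, and Acacb is the open symbol.

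In sum the 10 genes took 0.536%, 0.479% and 0.479% of all counts in trSrebf1 libraries and 0.124%, 0.117% and 0.123% in control libraries. Their summed level was 5124 ± 246 CPM in trSrebf1 and 1192 ± 77.6 CPM in control (SD, n = 3 each), a ratio of 4.30. Without Mid1ip1 it was 1883 ± 151 CPM in trSrebf1 and 275 ± 6.93 CPM in control, a ratio of 6.85. Mid1ip1 supplied 63.8%, 66.1% and 59.7% of the counts of the set in trSrebf1 libraries, against 78.5%, 75.7% and 76.5% in control libraries. The groups did not overlap in any of these sums.

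Among genes outside the set, the profile over the 6 libraries most like that of Fasn, by Euclidean distance in log2(CPM + 1) centred on each gene, was that of Apol6 (distance 0.352), followed by Cilp (0.482), Tgm5 (0.523), Ankrd33b (0.530) and Pdzk1ip1 (0.535). Apol6, an apolipoprotein L family gene, stood at 134, 103 and 114 CPM in trSrebf1 libraries and at 8.39, 5.16 and 7.31 CPM in control libraries. Within the set the nearest to Fasn was Acly (0.568). Nearest to Acly were Rbm38 (0.228), the sterol enzyme gene Lss (0.290), the class I histocompatibility gene H2-K1 (0.292), Chrng (0.384) and Acat2 (0.389), while Acss2 lay at 0.419. Within the set Acaca lay nearest to Mid1ip1 (0.421). With 6 libraries in 2 groups, likeness of this kind mainly reflects a similar step between the groups on the log2(CPM + 1) scale. The added 1 shrinks the step of genes near 0 CPM, so the edgeR log2 fold changes were not all alike. Tgm5 and Pdzk1ip1, with 0 counts in every control library, had 8.99 and 9.07, and Ankrd33b had 5.89, against 4.06 for Fasn. Chrng had 6.17, against 3.77 for Acly.

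Around the set, 8 lists of enzymes, carriers and regulators of the same metabolites were also chosen with earlier results of these data known. They held 83 symbols, of which 78 matched a row and 59 were tested. Of these 59, 12 were higher and 4 lower in trSrebf1, that is 20.3% and 6.78%, beside the 17.2% and 13% of all tested genes. Cytosolic enzymes that use or feed citrate, acetyl-CoA or malate were higher in 4 of 6 tested and lower in 0, with a median log2 fold change of 0.71. Acat2, a thiolase that joins a pair of acetyl-CoA molecules, rose by 3.69 on the log2 scale (SE 0.19, adjusted p = 1.48e-10), to 74.4, 71.6 and 65.8 CPM in trSrebf1 against 4.72, 5.16 and 6.37 CPM in control libraries. Hmgcs1, the next enzyme toward sterols, rose by 1.34 (SE 0.35, adjusted p = 0.00752), a call lost without trSrebf1 replicate 1 (adjusted p = 0.0522, range 8.87e-04 to 0.0522 over the alternatives). The cytosolic malate dehydrogenase Mdh1 and the NADPH-yielding isocitrate dehydrogenase Idh1 rose by 0.86 (SE 0.12) and 0.54 (SE 0.10). The count lower was also 0 at an unadjusted p under 0.05 and with DESeq2 and limma-voom.

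On the mitochondrial side, of 8 tested enzymes of acetyl-CoA, citrate and malate 1 was higher and 0 lower, beside 17.2% and 13% of all tested genes, also 0 lower at an unadjusted p under 0.05 and with DESeq2 and limma-voom, and the median was -0.05. That gene was Mdh2, mitochondrial malate dehydrogenase, which rose by 0.52 (SE 0.15, adjusted p = 0.0121), a call lost without control replicate 3 (adjusted p = 0.0753, range 0.0108 to 0.0753). Citrate synthase (Cs), which makes the citrate that Slc25a1 exports, averaged 31.3 ± 3.48 CPM in trSrebf1 and 25.8 ± 1.53 CPM in control (SD, n = 3 each, edgeR adjusted p = 0.239). Pyruvate dehydrogenase kinases and phosphatases had 0 of 5 called, and mitochondrial fatty acid synthesis and lipoylation 0 of 4, with 0 in either list at an unadjusted p under 0.05 in edgeR and 0 with DESeq2 or limma-voom. Among 6 tested mitochondrial carriers 2 were higher and 1 lower, beside 30.2% of all tested genes called in either direction. Slc25a10, the dicarboxylate carrier, rose by 1.10 (SE 0.23, adjusted p = 0.00116), the pyruvate carrier subunit Mpc1 rose by 0.64 (SE 0.14) and the phosphate carrier Slc25a3 fell by 0.56 (SE 0.16).

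Regulators of the pathway included genes called in both directions. Among 10 tested genes of AMP-activated protein kinase, which inhibits the carboxylases by phosphorylation, and its upstream kinases, 1 was higher and 1 lower, beside 17.2% and 13% of all tested genes, with a median of 0.23. The upstream kinase gene Camkk2 rose by 0.72 (SE 0.22, adjusted p = 0.0190) and the subunit gene Prkag1 fell by 0.86 (SE 0.31, adjusted p = 0.0418). Leaving out trSrebf1 replicate 1, control replicate 2 or control replicate 3 ended the call of Camkk2 (adjusted p of 0.0659, 0.0928 and 0.0923, range 0.00287 to 0.0928). The groups overlapped for Prkag1, and its call ended when trSrebf1 replicate 1 or 3 or control replicate 1 or 2 was left out (adjusted p of 0.126, 0.154, 0.133 and 0.146) and with DESeq2 (0.0631) and limma-voom (0.0582), in a range of 0.0107 to 0.154. Of 7 tested genes of cofactor attachment, malonyl-CoA removal and thioesterases 1 was higher and 0 lower, also 0 lower at an unadjusted p under 0.05 and with DESeq2 and limma-voom. This was Acot7, a cytosolic acyl-CoA thioesterase, which rose by 1.22 (SE 0.11, adjusted p = 2.53e-07).

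Of 13 tested transcription factor genes 3 were higher and 2 lower, that is 23.1% and 15.4%, near the 17.2% and 13% of all tested genes. With DESeq2 0 of them were lower and with limma-voom 1 was. Srebf1 rose by 1.98 on the log2 scale (SE 0.23, adjusted p = 2.88e-06), but 109 bases at its 3' end are shared with Rai1, which is transcribed from the other strand. Rai1 was itself higher, at 553 ± 21.0 CPM in trSrebf1 and 290 ± 10.4 CPM in control (SD, n = 3 each, edgeR log2 fold change 0.93), and its part in the Srebf1 count was not tested. Srebf2, its paralog that acts mainly on sterol genes, rose by 0.84 (SE 0.11, adjusted p = 1.14e-05) to 477, 496 and 468 CPM in trSrebf1, against 262, 240 and 300.3 CPM in control libraries. Mlx, the partner of the glucose-responsive factor ChREBP, rose by 0.74 (SE 0.18, adjusted p = 0.00391). The gene of ChREBP itself, Mlxipl, did not pass the filter. It had 0, 1 and 0 counts in trSrebf1 and 2, 3 and 2 counts in control libraries. Thra, a thyroid hormone receptor gene, fell by 0.90 (SE 0.32, adjusted p = 0.0417). Without trSrebf1 replicate 1 or 2 or control replicate 1 or 3 this call ended (adjusted p of 0.191, 0.0942, 0.111 and 0.0884), as it did with DESeq2 (0.0625), in a range of 0.00843 to 0.191. The other thyroid hormone receptor gene listed, Thrb, did not pass the filter and was higher in trSrebf1, without overlap. It had 11, 5 and 8 counts in trSrebf1 and 1, 2 and 2 counts in control libraries. Nr1h3, which encodes LXR alpha and is named here because of its call rather than by the rule, fell by 0.41 (SE 0.15, adjusted p = 0.0464). It did not pass without trSrebf1 replicate 1 or 3 or control replicate 1 or 3 (adjusted p of 0.118, 0.151, 0.222 and 0.0599), or with DESeq2 (0.0725) or limma-voom (0.0582), in a range of 0.0168 to 0.222.

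**Figure D5:**
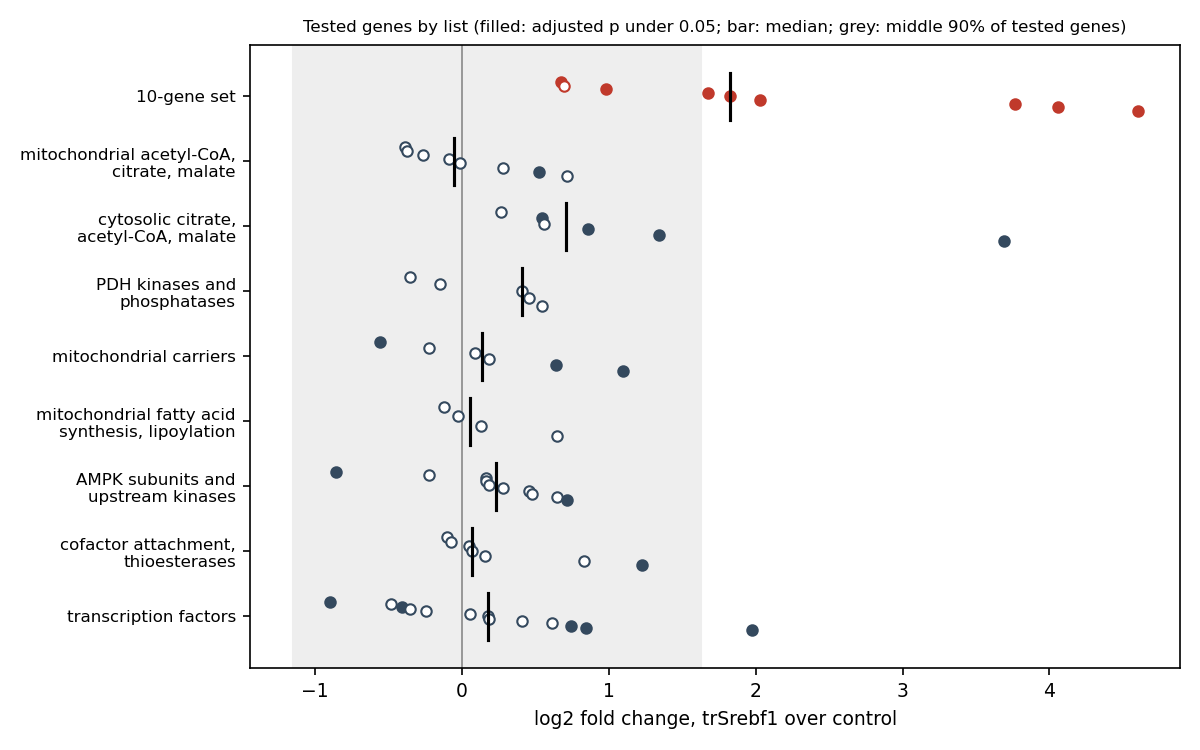
Log2 fold change, trSrebf1 over control, of each tested gene of the 10-gene set (red, top) and of 8 lists of related genes (blue), filled where the adjusted p was under 0.05, with a bar at each median and grey for the middle 90% of all tested genes. The set has a median of 1.82, the cytosolic list of 0.71, and the medians of the other 7 lists lie between -0.05 and 0.41.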

How the data were processed

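The values are raw tag counts for each gene symbol, deposited as 1 table for each library. Per the submitters' processing notes, the tools and builds include Bowtie2 2.2.5 and mm10, without their roles. Which counter, annotation and strand setting produced the counts is not given in the sources used here. From the 19865 symbols, those above a filter were fitted in R 4.3.3 with edgeR 4.0.16 (TMM factors, filterByExpr with a minimum count of 10 and a minimum total of 15, robust glmQLFit and glmQLFTest, group as the only term, two-sided). A standard error is the size of a log2 fold change divided by the square root of F. The fit was checked on simulated counts. Between libraries of a group the chi-square of the counts per degree of freedom was 4.91 to 9.23, above sampling noise, so none was a copy of another. The members and lists were chosen with earlier results of these data known. All 10 members were named, and of each related list up to 4 genes with the smallest p. Got1, Nr1h3, Mlxipl and Thrb were named outside this rule. Alternatives were other factors (RLE, upper quartile, none), no filter or 5 CPM in 3 libraries, DESeq2 1.42.0, limma-voom (limma 3.58.1), leaving out Ctsd, a replicate block and leaving out each library. Gene positions are from GENCODE M21 (GRCm38, the same assembly as mm10) and start regions from RefSeq GRCm38.p6. The limit for Thrsp allows for counting error in the control group only, and tags carry no molecular identifiers.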

Additional observations from a re-analysis of the deposited data

How the results depend on the processing

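Over the 15 alternatives, the 8 genes of the set that passed the threshold kept their direction and their call, with log2 fold changes of 3.90 to 4.14 for Fasn, 3.68 to 3.78 for Acly, 4.34 to 4.74 for Acss2, 1.88 to 2.27 for Me1, 1.74 to 1.89 for Mid1ip1, 1.51 to 1.77 for Acaca, 0.79 to 1.13 for Slc25a1 and 0.57 to 0.82 for Aacs. Between 8 and 10 genes of the set were higher and 0 lower, where counts above 8 come from Acacb and from Thrsp, which passes the filter only through its trSrebf1 libraries. Same-numbered libraries did not deviate together (correlations of 0.00257, -0.120 and -0.0630), so a replicate number is no pairing. With the replicate block 9 genes of the set were higher, Acacb added at an adjusted p of 0.0392, Nr1h3 lost at 0.0742, and 2820 genes were called in all, against 3083 without it. The 12 related genes higher ranged from 10 to 14. The 4 lower became 1 with DESeq2, 2 with limma-voom, 3 with the replicate block, 5 with upper-quartile factors or total counts and 1 to 3 without 1 library. Among genes that did not pass the threshold, the sign of the log2 fold change turned when a library was left out for Them4 (-0.25 to 0.035, positive without trSrebf1 replicate 2), Acot1 (-0.22 to 0.49, negative without trSrebf1 replicate 3) and Mecr (-0.22 to 0.16, positive without trSrebf1 replicate 3 or control replicate 3). The cause of these changes was not tested. Depth limits Acss2 in control libraries, Thrsp and the genes under the filter.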
